A study of Mus musculus with 130 samples.

Results

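The Obox genes (oocyte specific homeobox) are a rodent cluster of homeobox genes on chromosome 7, and Crxos is a homeobox gene in the same stretch of that chromosome, next to Crx. The set described here was chosen by name, every Obox symbol in the files without a pseudogene suffix and Crxos: Obox1, Obox2, Obox3, Obox5, Obox6, Obox7, Obox8 and Crxos. They are 8 of the 30403 named genes with any count, and all 8 were among the 13216 genes abundant enough to be tested. They were measured in 130 single mouse embryos of the 2-cell stage. B6129F1 zygotes were isolated 5 hours after fertilization, and from 6 hours onward their KSOM medium held either 10 µM SR1848 (80 embryos) or 0.1% DMSO, the solvent (50 embryos). SR1848 is a small molecule used to inhibit Nr5a2, an orphan nuclear receptor. Both groups were kept in wet chambers without an oil overlay, because the inhibitor is hydrophobic. Of 56 controls in the design text, 50 were analysed here. The series concerns Nr5a2 in zygotic genome activation, when the embryo begins to transcribe its own DNA.

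Homeobox genes encode transcription factors that bind DNA through a homeodomain. Obox proteins belong to the PRD class, with homeodomains related to those of Otx and Crx. Some Obox genes are transcribed in the growing oocyte and their mRNA is stored in the egg, while others are first transcribed from the embryo's genome at the 2-cell stage. On that general knowledge Obox1, Obox2, Obox5 and Obox7 are called the maternal members below, and Obox3, Obox6 and Crxos the zygotic members. Obox8 was placed in neither group. No sample taken before genome activation is part of the series, so this division is background and was not measured. Embryos lacking the Obox cluster are known to fail in genome activation, and the family is known for overlapping roles among its members.

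The members sit in one region of chromosome 7 (mm10, GENCODE M21), and all 8 are annotated there as protein coding. Obox8 lies at chr7:14331436-14333557 on the minus strand and Obox7 at chr7:14659496-14665996 on the plus strand. The annotated span of Obox2 is chr7:15388721-15398545 and that of Obox1 is chr7:15388948-15556866, both on the plus strand. The span of Obox3, chr7:15479825-15639902, is on the minus strand and overlaps that of Obox1. Obox5 follows at chr7:15750131-15759800 on the plus strand, Obox6 at chr7:15833241-15839678 on the minus strand and Crxos at chr7:15882617-15904020 on the plus strand. Crx, at chr7:15865947-15879968 on the minus strand, ends before Crxos begins.

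The copies are similar enough that stretches of promoter windows can be laid over each other, for members of both groups. RefSeq promoter windows (GRCm38.p6, 250 bases before to 50 after a start site) matched 6 of the 8 members, with 8 windows in all. Obox6 and Obox8 had no entry. The letters TATATAA, searched on both strands, occurred in 4 of these 8 windows and in 3.24% of the 32851 windows in the table. These 4 windows belong to Obox1, Obox3, Obox5 and Obox7. The 87 bases ending at those letters are shown because 3 of the genes are maternal members and Obox3 is a zygotic one. Capitals mark the 8 positions at which the 4 sequences are not all alike, and each is written 5′ to 3′ on the strand of its gene.
Obox5: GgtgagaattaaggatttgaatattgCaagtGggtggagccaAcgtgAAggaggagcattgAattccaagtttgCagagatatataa
Obox7: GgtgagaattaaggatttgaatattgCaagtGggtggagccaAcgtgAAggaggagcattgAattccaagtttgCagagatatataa
Obox1: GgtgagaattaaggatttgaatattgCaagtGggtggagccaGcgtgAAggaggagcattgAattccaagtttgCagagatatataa
Obox3: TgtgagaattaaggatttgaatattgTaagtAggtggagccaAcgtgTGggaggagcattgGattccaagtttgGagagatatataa

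These stretches lie at chr7:15750259-15750345 (+) for Obox5, chr7:14659623-14659709 (+) for Obox7, chr7:15547158-15547244 (+) for Obox1 and chr7:15639801-15639887 (−) for Obox3. Obox5 and Obox7 were identical over the 87 bases, and Obox1 differed from both at 1 position (98.9% identity). Obox3 differed from Obox5 and Obox7 at 7 positions (92.0%) and from Obox1 at 8 (90.8%). The first letter of TATATAA was 30 bases before the RefSeq start site in Obox3, 31 in Obox5, 19 in Obox1 and 5 in Obox7. The Obox7 stretch therefore takes in its start site and the base after it. GGATTA, the core letters bound by Otx and Crx homeodomains, occurred in 1 of the 8 windows, 168 bases before the start of Obox3, against 7.06% of all windows. It does not overlap TATATAA there. CAAGGTCA and CAAGGCCA, extended forms of the site that Nr5a2 binds, occurred in none of the 8 windows, against 1.56% and 2.4% of all windows. A match in letters is a description of the window and shows no binding. A window is also not the start of all RNA of its gene. ENSMUST00000181001.7, with 86.6% of the Obox1 counts with DMSO, starts at 15388948, outside the Obox1 window. ENSMUST00000086122.9, with 30.4% of the Obox3 counts with DMSO, starts at 15627876 on the minus strand, outside the Obox3 window.

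Libraries were deep for single embryos: the counts on named genes ran from 2705990 to 7773429 with SR1848 (median 4618022) and from 3150107 to 8379784 with DMSO (median 5437851). Nr5a2 mRNA itself was 9.4-fold lower with SR1848, with no overlap between the groups (adjusted p = 1.1e-36, edgeR's quasi-likelihood test). At the adjusted threshold of 0.05, 82.2% of all tested genes were called, 45.6% higher and 36.5% lower, so that a call by itself sets no gene apart in this comparison. Values below are CPM, counts per 1000000 on TMM-scaled libraries, unless said otherwise, and on that scale the median gene changed by 0.24 (log2). CPM is relative to the whole library, so a change in one gene and a change in the total mRNA of an embryo cannot be told apart from it. Nothing in the labels ties embryos to a female, a culture drop or a plate. The p-values measure the spread between embryos, which may be partly technical. If embryos of a group shared a drop or a plate, they are not independent replicates of the treatment. The p-values would then hold none of the spread between cultures and be too small.

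The zygotic members and Obox8 fell with SR1848 under each of the 5 library scalings tried. With TMM scaling each fall was more than 4-fold, and with upper-quartile scaling Crxos and Obox8 stayed under that size, at −1.9 and −1.84 on the log2 scale. Of all tested genes 11.8% were called and at least 4-fold lower. Obox6, one of the zygotic homeobox genes first transcribed at the 2-cell stage, had the widest separation of the 4. With DMSO its lowest, median and highest values were 264, 603 and 929 CPM, and with SR1848 they were 3.13, 89.8 and 264 CPM. The groups did not overlap, but they met closely: the highest SR1848 embryo was at 263.6 CPM and the lowest DMSO embryo at 264.2 CPM. Every SR1848 embryo lay below every DMSO embryo, which held for 1.7% of all tested genes. The means were 575 ± 157 CPM (SD, n = 50) and 91.2 ± 60.1 CPM (SD, n = 80), a 6.3-fold fall with a log2 change of −2.65 (SE 0.159, adjusted p = 2.7e-33, edgeR's quasi-likelihood test).

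Obox3, a zygotic member with a family of pseudogene copies, ranged from 29.4 to 190 CPM around a median of 91.5 with DMSO. With SR1848 it ranged from 0.875 to 102 CPM around a median of 10.8. In 65 of the 80 SR1848 embryos it lay below the lowest DMSO embryo, and in 79 below the DMSO median, so 1 SR1848 embryo reached the upper part of the control range. The fall was 5.34-fold (log2 change −2.42, SE 0.195, adjusted p = 3.8e-23, edgeR). The median was 50.4 estimated counts per embryo with SR1848 and 485 with DMSO, which leaves Obox3 in SR1848 embryos the member with the fewest counts behind its value.

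Crxos, whose product carries a homeodomain related to that of the Obox proteins, ranged from 89.6 to 886 CPM with DMSO (median 408) and from 0.616 to 328 CPM with SR1848 (median 80.1). The ranges overlapped more than those of Obox6: 42 of 80 SR1848 embryos lay below the lowest DMSO embryo, although all 80 lay below the DMSO median. It fell 4.36-fold (log2 change −2.13, SE 0.185, adjusted p = 6.2e-21, edgeR). Its neighbour Crx, a photoreceptor homeobox gene on the opposite strand, was far less abundant, with medians of 7.59 CPM and 3.33 CPM, and fell by 0.67 on the log2 scale (SE 0.212, adjusted p = 0.00279, edgeR).

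Obox8 ranged from 97.6 to 455 CPM with DMSO (median 212) and from 0 to 165 CPM with SR1848 (median 51.1), with 1 SR1848 embryo at 0. In 69 of 80 SR1848 embryos it lay below the lowest DMSO embryo. Its fall was 4.18-fold (log2 change −2.06, SE 0.189, adjusted p = 1.6e-19, edgeR), and no part of its transcript is shared with another gene over 31 bases. Of the 80 SR1848 embryos, 41 lay below the DMSO range for all of Obox3, Obox6, Crxos and Obox8. Another 21 were within the range for 1 of these genes, 11 for 2 and 7 for 3. None could be within it for all 4, since Obox6 did not overlap between the groups, so 3 was the most possible. The 4 falls among all log2 changes stood at the 6.26th percentile for Obox6, the 7.96th for Obox3, the 10.5th for Crxos and the 11.1th for Obox8, counted from the lowest.

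**Figure D1:**
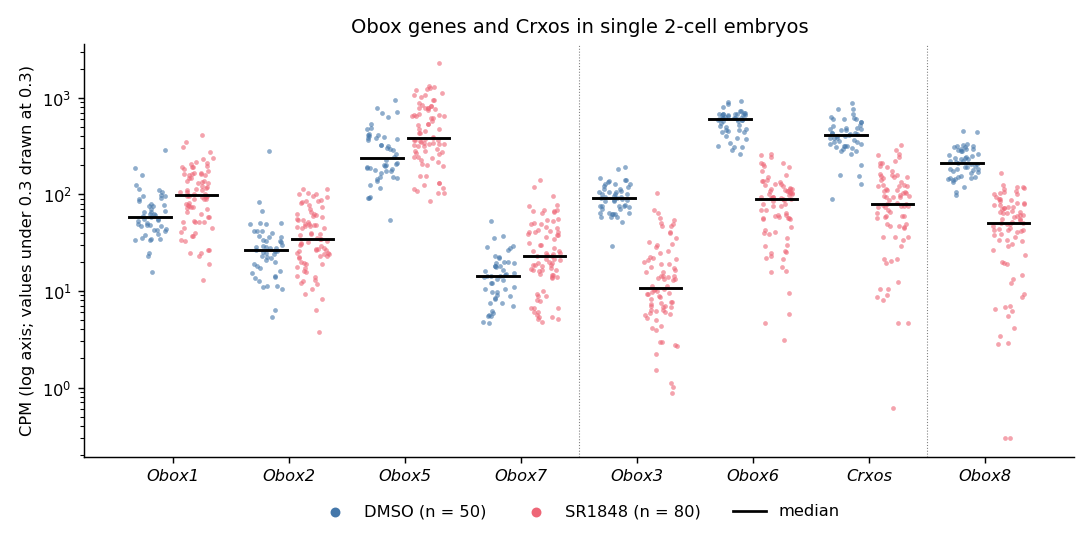
CPM of the 8 members in each embryo on a log axis, DMSO (n = 50) beside SR1848 (n = 80), with a black line at each median and dotted lines between the maternal members, the zygotic members and Obox8. The points of Obox6 do not overlap between the groups, those of Obox3, Crxos and Obox8 are shifted down with SR1848, and those of Obox1, Obox2, Obox5 and Obox7 overlap over most of their range (TMM scaling, and a shift that turns downward when libraries are scaled to oocyte transcripts).

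The maternal members did not fall with the zygotic ones when set against the rest of the library: 3 of the 4 were called higher, between 1.63-fold and 1.99-fold, and this direction turned when libraries were scaled to a sum of oocyte transcripts. Of all tested genes 45.6% were called higher. Obox5, the most abundant maternal member, ranged from 54.6 to 945 CPM with DMSO (median 237) and from 84.7 to 2310 CPM with SR1848 (median 388). The groups overlapped widely, with 63 of 80 SR1848 embryos above the DMSO median and 11 above the highest DMSO embryo. The change was 1.76-fold higher with TMM scaling (log2 change 0.82, SE 0.177, adjusted p = 1.5e-05, edgeR) and −0.37 on the log2 scale with oocyte-transcript scaling (adjusted p = 0.0274).

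Obox7, the least abundant maternal member, ranged from 4.64 to 53.2 CPM with DMSO (median 14.2) and from 4.77 to 141 CPM with SR1848 (median 23.2), and 14 SR1848 embryos exceeded every DMSO embryo. It was 1.99-fold higher (log2 change 0.99, SE 0.193, adjusted p = 1.7e-06, edgeR), and −0.26 with oocyte-transcript scaling, which did not pass (adjusted p = 0.148). Obox1 ranged from 15.8 to 292 CPM with DMSO (median 58.8) and from 13.1 to 410 CPM with SR1848 (median 97.7). The groups overlapped almost completely, although 59 of 80 SR1848 embryos were above the DMSO median. Obox1 was 1.63-fold higher (log2 change 0.71, SE 0.167, adjusted p = 6.8e-05, edgeR), against −0.51 with oocyte-transcript scaling (adjusted p = 0.0007).

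Obox2 ranged from 5.38 to 280 CPM with DMSO (median 26.4) and from 3.75 to 115 CPM with SR1848 (median 34.7). Its log2 change of 0.37 did not pass the test (SE 0.182, adjusted p = 0.0572, edgeR), and 51 of 80 SR1848 embryos were above the DMSO median. With oocyte-transcript scaling its change was −0.77 (adjusted p = 1.9e-05). The scalings differ because the 33 summed oocyte transcripts themselves made up more of the SR1848 libraries (median 30600 CPM, against 13500 CPM with DMSO), and 35.7% of their counts came from Zbed3 and 34.7% from Spin1. That scaling moved the median of all genes by −1.17 on the log2 scale. Relative to the median gene, the maternal members were 0.11 to 0.77 higher under all 5 scalings, and the zygotic members with Obox8 were at −2.89 to −2.11. A scaling shifts all genes nearly alike, so the likeness of these values across the 5 scalings largely follows from subtracting the median.

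**Figure D2:**
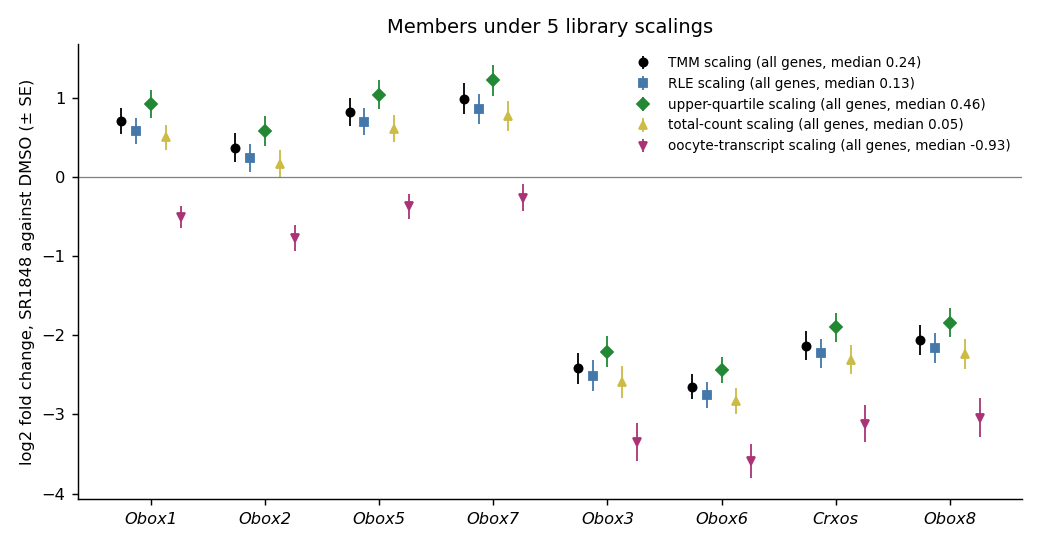
Log2 fold change of each member, SR1848 against DMSO, with its standard error, under 5 ways of scaling the libraries (n = 80 and 50 embryos). The median log2 fold change of all tested genes under each scaling is in the key. Obox3, Obox6, Crxos and Obox8 lie below −1.8 under all 5, while Obox1, Obox2, Obox5 and Obox7 lie above 0 under 4 and below 0 with oocyte-transcript scaling.

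A ratio of genes within one embryo does not depend on the scaling, and the ratio of each zygotic member to Obox5 was lower with SR1848. These folds come from differences of mean log2 ratios, unlike the edgeR folds of single genes, and the 2 are not compared. Obox5 was itself called higher with TMM scaling, and the groups were chosen with earlier results known. The ratios are therefore no separate support for the falls above. For Obox6 the ranges of the ratio overlapped and those of its CPM did not. The log2 ratio of Obox6 to Obox5 averaged 1.12 ± 0.86 (SD, n = 50) with DMSO and −2.61 ± 1.69 (SD, n = 80) with SR1848. That is a 13.3-fold lower ratio, and 64 of 80 SR1848 embryos lay below the lowest DMSO embryo. The ratio of Obox3 to Obox5 averaged −1.48 ± 0.722 and −5.17 ± 1.68, 12.9-fold lower, with 73 of 80 SR1848 embryos below every DMSO embryo. The ratio of Crxos to Obox5 averaged 0.62 ± 0.945 and −2.66 ± 1.82, 9.71-fold lower, with 67 of 80 below. Each of the 3 differences had p = 2e-05 in a two-sided permutation test of 100000 resamples, adjusted over the 3 ratios, the smallest value those resamples can give.

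Summed per embryo, the zygotic members Obox3, Obox6 and Crxos reached a median of 1110 CPM with DMSO (438 to 1920) and 187 CPM with SR1848 (4.63 to 588), and 72 of 80 SR1848 embryos lay below the lowest DMSO embryo. The maternal members Obox1, Obox2, Obox5 and Obox7 summed to a median of 336 CPM with DMSO (81.3 to 1550) and 529 CPM with SR1848 (114 to 2970). The division of the family's counts therefore differed. Maternal members held a median of 21.3% of the counts of the 8 members with DMSO (8.24% to 57.5%) and 72.1% with SR1848 (21% to 99.5%). Obox5 alone went from a median share of 16.5% to 51.4%, while Obox6 went from 33.9% to 9.95% and Crxos from 25.1% to 10.4%. These shares do not depend on the scaling of the libraries. They are shares of counts, not corrected for transcript length, and so do not rank the genes by mRNA level. All 8 members together summed to a median of 1800 CPM with DMSO and 811 CPM with SR1848.

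**Figure D3:**
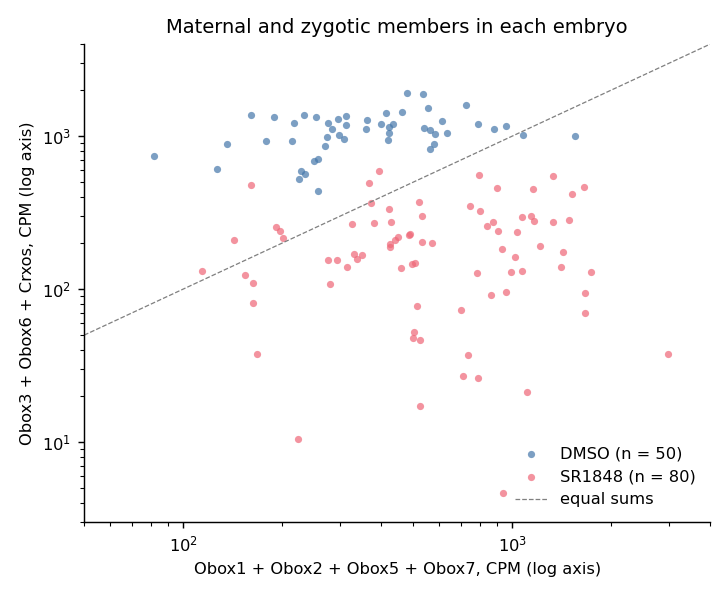
Summed CPM of Obox3, Obox6 and Crxos against summed CPM of Obox1, Obox2, Obox5 and Obox7, 1 point per embryo, both axes log, with a dashed line where the sums are equal. DMSO embryos (n = 50) lie mostly above the line, between 438 and 1920 CPM on the vertical axis, and SR1848 embryos (n = 80) mostly below it, between 4.63 and 588 CPM. The horizontal position depends on TMM scaling.

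Levels of different genes were compared per length, as estimated counts per base of transcript, scaled to the same sum in every embryo as in TPM. With DMSO the order of these levels was Crxos (1040 ± 392, SD, n = 50), Obox6 (730 ± 175), Obox8 (329 ± 103), Obox5 (316 ± 192), Obox3 (112 ± 34.7), Obox1 (105 ± 63.7), Obox2 (44.3 ± 48.1) and Obox7 (20 ± 10.9). Neighbours in that order were closer than the larger of their SDs, apart from Obox6 and Obox8 and from Obox5 and Obox3. With SR1848 it was Obox5 (496 ± 332, SD, n = 80), Crxos (235 ± 157), Obox1 (157 ± 99.4), Obox6 (102 ± 61), Obox8 (69.8 ± 43.8), Obox2 (53 ± 32.5), Obox7 (35.5 ± 27.4) and Obox3 (19.7 ± 18.6), and each pair of neighbours was closer than the larger of their SDs. Within single embryos Crxos was the highest member per length in 41 and Obox6 in 9 of the 50 DMSO embryos. Obox5 was the highest in 62 and Crxos in 18 of the 80 SR1848 embryos.

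The counts of Crxos were divided unequally among its annotated transcripts, and the division differed between the groups. The most abundant was the short transcript ENSMUST00000171280.2, which starts at 15901646 and held 67% of the counts of the gene with DMSO and 85.3% with SR1848. The transcripts ENSMUST00000098801.8 and ENSMUST00000150050.2, which start further upstream at 15896124 and 15896171, together held a median of 32.4% of the counts per embryo with DMSO (14.9% to 63.3%) and 12.7% with SR1848 (0% to 38.4%). In 44 of 80 SR1848 embryos this share lay below the lowest DMSO embryo, and in 78 below the DMSO median. In the authors' deposited table the log2 fold changes were −3.72 (SE 0.242) for ENSMUST00000098801.8, −4.1 (SE 0.302) for ENSMUST00000150050.2 and −2.07 (SE 0.197) for ENSMUST00000171280.2. The sequences of 100 bases before the upstream start and the downstream start are shown because these are the sites between which the share moved.
Crxos before 15896124: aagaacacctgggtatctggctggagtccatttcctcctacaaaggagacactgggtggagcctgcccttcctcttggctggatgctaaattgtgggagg
Crxos before 15901646: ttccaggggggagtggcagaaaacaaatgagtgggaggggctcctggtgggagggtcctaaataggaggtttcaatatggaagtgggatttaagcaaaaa

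They lie at chr7:15896024-15896123 (+) and chr7:15901546-15901645 (+) of GRCm38.p6, and no base is capitalised. The division of reads between transcripts that overlap is an estimate. The shorter transcript lies within the span of ENSMUST00000098801.8, with which it shares its end at 15904020.

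Of the 32 transcripts of the members, 31 had an adjusted p-value in the authors' deposited table. Of the zygotic members' 14, 10 were lower and 0 higher, and of the maternal members' 16, 0 were lower and 4 higher, where 26.4% and 19.3% of the 66633 transcripts with an adjusted p were lower and higher. The authors' deposited table gave −2.95 (SE 0.163) for the single transcript of Obox6 and −2.36 (SE 0.194) for that of Obox8. For Obox3 its main protein-coding transcripts ENSMUST00000086122.9, ENSMUST00000095217.10 and ENSMUST00000173912.7 were at −3.14, −2.96 and −3.06 in the authors' deposited table. The retained-intron transcript ENSMUST00000182148.1 was at −0.77 there, and its part of the Obox3 counts was 2.42% with DMSO and 9.76% with SR1848. ENSMUST00000173395.7 was at 0.03 in the authors' deposited table, which did not pass, and its part was 1.65% and 10.8%.

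Among the maternal members, ENSMUST00000098802.9 held 91.3% of the Obox5 counts with DMSO and 91.2% with SR1848. ENSMUST00000181001.7 held 86.6% and 82.8% of the Obox1 counts. It starts at 15388948, inside Obox2, and ends at 15556846, so most counts listed for Obox1 stand on a transcript that begins in Obox2. In the authors' deposited table it was at 0.31 (SE 0.158, adjusted p = 0.103). The single Obox1 transcript called higher in the authors' deposited table was ENSMUST00000173245.1, at 0.99 (SE 0.186, adjusted p = 4.5e-07), which held 8.17% of the Obox1 counts with DMSO and 12.4% with SR1848. The main transcript of Obox2, ENSMUST00000036575.15, held 81.9% and 76.3% of its counts, and ENSMUST00000174076.7 held 7.5% and 11.4%.

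**Figure D4:**
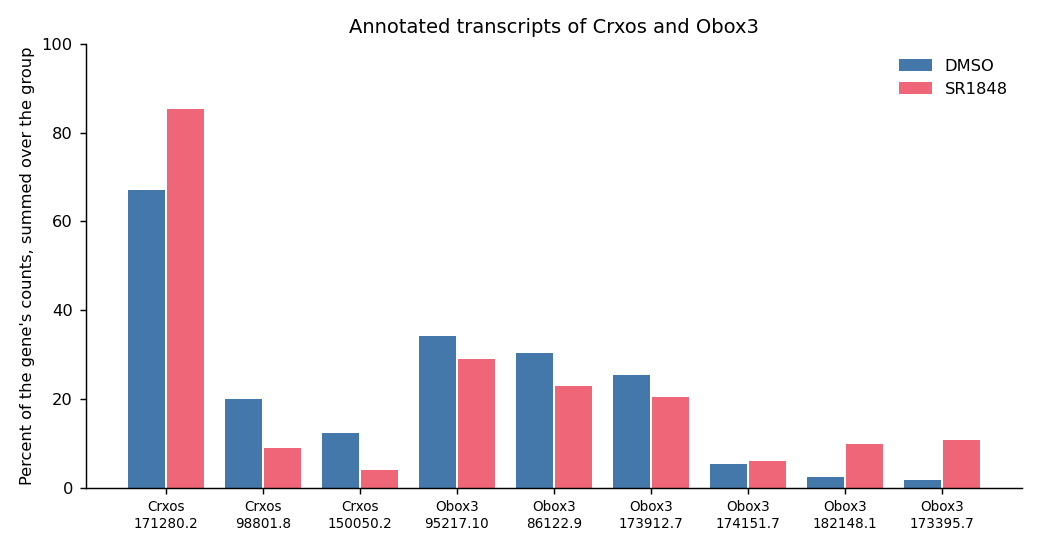
Percent of the counts of Crxos and of Obox3, summed over the embryos of a group, on each annotated transcript with more than 1% in either group (labels are the last digits of the transcript identifier). ENSMUST00000171280.2 holds 67% of Crxos with DMSO and 85.3% with SR1848, and ENSMUST00000173395.7 and ENSMUST00000182148.1 hold more of Obox3 with SR1848.

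How far reads can be assigned to 1 copy differed among the members. Counted in stretches of 31 bases, 100% of the Obox8 sequence, 85.4% of Obox6, 72.2% of Crxos, 68.8% of Obox3, 61.3% of Obox5, 55.1% of Obox7, 28.8% of Obox1 and 19.7% of Obox2 occurred in no other gene. The values of Obox1 and Obox2 are therefore uncertain one by one, since they share 69.6% and 79.9% of their stretches with other maternal members. With the 4 maternal members merged into 1 gene the log2 change was 0.78 (SE 0.17) under TMM scaling. Obox3 shares 24.8% of its stretches with entries named Obox3-ps and 8.65% with the maternal members. Merged with the Obox3-ps entries it was 6.55-fold lower (log2 change −2.71, SE 0.216). Crxos shares 27.8% of its stretches with genes outside the Obox family, and 0% with the maternal members or Obox3. The part of those outside genes in the Crxos counts was not tested.

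Obox3 and Obox4 pseudogenes are also listed in the files, as Obox3-ps and Obox4-ps entries. Of 8 Obox3-ps entries 6 passed the filter on low counts, which they could do through the group in which they are high, and those 6 were lower with SR1848, between −3.38 and −2.16 on the log2 scale with TMM scaling and between −4.29 and −3.07 with oocyte-transcript scaling. Obox3-ps5 had 107 ± 38.5 CPM (SD, n = 50) with DMSO and 15.2 ± 20.9 CPM (SD, n = 80) with SR1848 (log2 change −2.81, adjusted p = 1.1e-19, edgeR). The 8 entries summed to a median of 224 CPM with DMSO (53.7 to 406) and 14.2 CPM with SR1848 (0.952 to 236).

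The 38 Obox4-ps entries with counts, which share no stretch of 31 bases with any member, summed to a median of 11.3 CPM with DMSO (2.44 to 44.5). With SR1848 the sum had a median of 95.8 CPM (8.87 to 534), and 64 of 80 embryos lay above every DMSO embryo. As a single merged gene the sum was 8.69-fold higher (log2 change 3.12, SE 0.217). Only 3 of the 38 were abundant enough to be tested, and they passed the filter through the group in which they are high. The most abundant, Obox4-ps28, had 3.10 ± 4.13 CPM (SD, n = 50) with DMSO and 66.2 ± 56.8 CPM (SD, n = 80) with SR1848. Its log2 change was 4.41 with TMM scaling (adjusted p = 7.7e-26, edgeR) and 3.56 with oocyte-transcript scaling (adjusted p = 3.5e-18). The entries were not alike: 25 of the 38 had a higher and 13 a lower mean with SR1848, most of them near 0. Obox4-ps6, chosen after its values were seen, had a mean of 2.2 CPM with DMSO and 0.333 CPM with SR1848. The 3 tested entries, Obox4-ps28, Obox4-ps27 and Obox4-ps12, held 77.7% of the summed CPM with SR1848 and 32% with DMSO. The other 35 summed to 9.37 ± 4.06 CPM (SD, n = 50) with DMSO and 26.7 ± 22.4 CPM (SD, n = 80) with SR1848. In the deposited counts 5 entries had the same value as another in every embryo, and reads of identical copies cannot be told apart, which does not affect the sum.

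**Figure D5:**
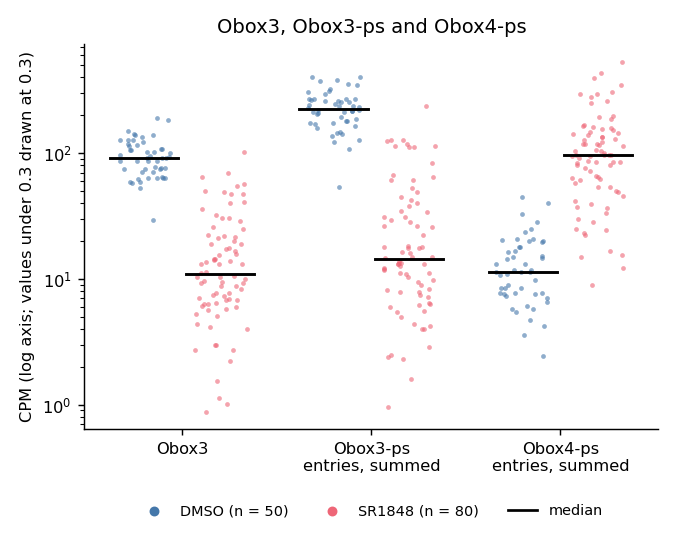
CPM of Obox3, of the 8 Obox3-ps entries summed and of the 38 Obox4-ps entries summed, in each embryo on a log axis, DMSO (n = 50) beside SR1848 (n = 80), with a black line at each median. Obox3 and Obox3-ps are lower with SR1848 and Obox4-ps is higher, with medians of 11.3 CPM and 95.8 CPM.

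Within the SR1848 embryos members of one group varied together and apart from the other group, while within the DMSO embryos this division was less clear. Spearman's rho between pairs of maternal members was 0.66 to 0.81 over the 50 DMSO embryos and 0.80 to 0.88 over the 80 SR1848 embryos. Among Obox3, Obox6, Crxos and Obox8 it was 0.33 to 0.68 with DMSO and 0.68 to 0.85 with SR1848. Between a maternal member and one of these it was 0.04 to 0.55 with DMSO and −0.18 to 0.20 with SR1848. Within the DMSO embryos Obox3 correlated with maternal Obox5 at 0.55, above its 0.49 with Obox6, 0.45 with Crxos and 0.33 with Obox8. Within the SR1848 embryos the summed oocyte transcripts correlated with Obox6 at −0.77, with Obox8 at −0.68, with Crxos at −0.64 and with Obox3 at −0.58, against −0.06, −0.29, −0.20 and 0.06 within the DMSO embryos. The maternal members correlated with that sum at 0.27 to 0.46 with SR1848 and at 0.46 to 0.56 with DMSO. Correlations with library depth lay between −0.22 and 0.19, and those with Nr5a2 mRNA between −0.09 and 0.45. All these values are descriptions, since the points share libraries and a common total, and near-identical copies also share reads.

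Among 6252 candidates, ranked by the mean of the within-group rho, the genes whose levels were most like those of Obox5 were Rfpl4 (0.86), Oosp3 (0.86), an oocyte-secreted protein gene, and Tcl1b1 (0.85), of the Tcl1 family. These means cover 80 SR1848 and 50 DMSO embryos and are descriptions. Candidates were tested genes with a mean of at least 20 CPM. Members and genes named Gm plus digits or ending in Rik were left out, so closer genes may be among those. Rfpl4 and Tcl1b1 were called higher with TMM scaling, at 0.64 and 0.73 on the log2 scale, and Oosp3, at 0.10, did not pass (adjusted p = 0.635, edgeR). Obox3 was most like Obox3-ps5 (0.87) and Obox3-ps2 (0.75), which share sequence with it, and Ubl5b (0.74), which was at −2.3 on the log2 scale. Crxos was most like the ribosomal protein genes Rps25 (0.80) and Rpl24 (0.78), at −1.85 and −2.63, and Dppa5a (0.78), at −0.88.

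Relatives in the wider PRD class went in both directions, as tested genes did as a whole. Of 38 relatives listed, 19 were tested. With TMM scaling 10 were higher and 6 lower (median log2 change 1.01, against 0.24 for all genes). With oocyte-transcript scaling 5 were higher and 9 lower. Over all tested genes 45.6% were higher and 36.5% lower with TMM scaling, and 10.7% and 63.9% with oocyte-transcript scaling. Whether the class differs from all tested genes was not tested. Sebox, an oocyte homeobox gene and the most abundant of them, was at 47.6 ± 20.5 CPM (SD, n = 50) with DMSO and 121 ± 49.3 CPM (SD, n = 80) with SR1848, with a log2 change of 1.34 (adjusted p = 9.9e-22, edgeR) that was 0.14 with oocyte-transcript scaling and did not pass there (adjusted p = 0.263). Prrx2, a mesenchymal homeobox gene, was at 10.9 ± 9.14 CPM and 0.294 ± 0.828 CPM, with a log2 change of −5.11 (adjusted p = 4.6e-25, edgeR). It had no count in 68 of the 80 SR1848 embryos and passed the filter on low counts through the DMSO group. The size of its change is therefore uncertain.

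Among 23 other proposed regulators of genome activation 8 were higher and 14 lower with TMM scaling (median −0.953) and 2 and 19 with oocyte-transcript scaling. For these counts and those of the 2-cell genes below, the shares over all tested genes differ by scaling. They were 45.6% higher and 36.5% lower with TMM scaling, and 10.7% and 63.9% with oocyte-transcript scaling. Dppa4 and Dppa2, partners that act upstream of 2-cell genes in embryonic stem cells, were at −4.23 and −2.51. Klf17, the most abundant, was at −0.20 with TMM scaling (adjusted p = 0.0141, edgeR) and −1.42 with oocyte-transcript scaling (adjusted p = 6.9e-32). Of 22 tested 2-cell genes 17 were higher and 5 lower (median 1.55), or 12 and 7 with oocyte-transcript scaling, with Tcstv3 at 3.78, Tcstv1 at 3.89 and the most abundant, Tmem92, at 0.47. With oocyte-transcript scaling Tcstv3 and Tcstv1 were at 2.81 and 2.87 and Tmem92 turned to −0.64 (adjusted p = 8.3e-06, edgeR).

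Among the listed oocyte transcripts, mRNAs stored in the egg, 31 were tested. With TMM scaling 24 were higher and 2 lower (median 0.941), where 45.6% and 36.5% of all tested genes were. With the scaling to their own sum 7 were higher and 15 lower, where 10.7% and 63.9% of all tested genes were. Zbed3 had 2890 ± 1720 CPM (SD, n = 50) with DMSO and 12900 ± 7510 CPM (SD, n = 80) with SR1848, and Cpeb1 was at 1.93 on the log2 scale. Markers of other cells that a preparation of zygotes could hold were also summed. The 13 cumulus markers summed to 26.8 to 93 CPM with DMSO and 1.98 to 51.7 CPM with SR1848, mostly Amhr2 (−1.44), while Has2 and Ptx3 had medians of 0 in both groups. The 9 sperm markers summed to at most 14.3 CPM, with Smcp at 0 in every embryo. The 8 blood markers summed to 6.47 to 139 CPM with DMSO and 65.5 to 682 CPM with SR1848, nearly all from Hba-a1 and Hba-a2. These alpha-globin genes had 13.8 ± 10.7 and 30.1 ± 27.4 CPM (SD, n = 50) with DMSO and 86.1 ± 63.5 and 155 ± 104 CPM (SD, n = 80) with SR1848. The beta-globin gene Hbb-bt was at 0 in every embryo. The part of these markers in the members' differences was not tested.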

How the data were processed

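The controls are titled NT, and their DMSO treatment comes from the labels' treatment protocol. The submitters' processing notes name kallisto 0.46.1, DESeq2 1.32.0, Trim Galore 0.6.2, bcl2fastq and R 3.5.1, besides mm10 and hg19, whose roles are not stated. The authors deposited estimated counts per transcript (28.13% of values not whole) and log2 values of those counts divided by 1 factor per embryo, used only as a check. The authors' deposited comparison table holds log2 fold changes, base means on a signal scale, a test score and p-values per transcript. Its sign matched SR1848 minus DMSO in 97.0% of 11261 abundant transcripts. Its coordinates do not match GENCODE M21 and were not used.

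Counts were summed per gene symbol of that table. Left out were transcripts without a gene (0.739% of counts) and 5 entries that are no gene (0.0258%). Sums were rounded and fitted with edgeR 4.0.16 in R 4.3.3 (TMM, filterByExpr, robust glmQLFit, glmQLFTest, two-sided, Benjamini-Hochberg over 13216 genes, threshold 0.05). The biological coefficient of variation was 0.771. Ratios used a prior count of 0.5 and SciPy 1.17.1. The script was tested on simulated data. Reads carry no molecular identifiers.

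Members, their groups and all lists were chosen with earlier results of these data known. Named genes are the 8 members, Crx, the 3 genes most like Obox3, Obox5 and Crxos (mean of at least 20 CPM), and from each list the 2 smallest p-values and the most abundant gene. Nr5a2, the pseudogene entries, Spin1 and the markers at 0 were named after their values were seen.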

Additional observations from a re-analysis of the deposited data

How the results depend on the processing

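The falls of Obox3, Obox6, Crxos and Obox8 kept their direction and their call under all 16 alternatives tried, with log2 changes of −3.35 to −2.21, −3.59 to −2.44, −3.12 to −1.9 and −3.04 to −1.84. The maternal members depended on the scaling. With libraries scaled to oocyte transcripts, a scaling that an earlier analysis of these data added after seeing them, Obox1 was at −0.51, Obox2 at −0.77, Obox5 at −0.37 and Obox7 at −0.26, and the members called higher and lower numbered 0 and 7 in place of 3 and 4. With that scaling 10.7% of all genes were called higher and 63.9% lower, and 14.3% of the called genes were higher, against 55.5% with TMM. Obox1 lost its call in embryos numbered above 40 (0.55, adjusted p = 0.0838, edgeR), where fewer embryos enter (15 DMSO and 40 SR1848). Obox2 passed as higher under 6 alternatives, at 0.41 to 0.58, and as lower with oocyte-transcript scaling. Among the 6 were upper-quartile scaling (0.58) and the number of detected genes as a covariate (0.55). The cause was not tested. No alternative changed the call of a within-embryo ratio. Merging copies of a family was chosen after seeing the data. No strong pairing by embryo number was visible. Same-numbered embryos had a mean correlation of deviations of 0.00626 over 50 numbers, 2 of them above 0.1. Only 1 SR1848 embryo correlated best with its own number. A weak effect shared by same-numbered embryos could be missed by these correlations. With the replicate block Obox2 was at 0.53 (adjusted p = 0.0036, edgeR), and no other member changed its call. Depth limits Obox3 with SR1848, with as few as 3.29 counts in an embryo, Crxos, with as few as 3.54, and Obox8, with 0 in 1 embryo.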
